A study of Equus caballus with 32 samples.

Results

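Blood of 32 Welsh Pony mares was ranked by a score of red cell transcripts, and the 8 arrays with the highest score, called rich here, were compared with the 8 arrays with the lowest score, called poor, which makes 16 of 32 arrays. The score of an array was the mean over 4 genes, HBB, AHSP, ALAS2 and SELENBP1, of each gene's z value over all 32 arrays. The arrays were thus chosen by measured values and without regard to the weaning of the mares, and the levels of these 4 genes are given as a description with no test. Venous whole blood of each mare was drawn 30 days after weaning into tubes with an RNA stabiliser, and the Cy3-labelled cRNA of each mare was hybridised to 1 single-colour Agilent array. The labels give brutal weaning for 16 mares and progressive weaning for 16, and say no more of either procedure. All mares shared breed, sex, tissue and time after weaning, there was no sample without weaning, and each array is a different mare. Arrays are named here by weaning type and a number in the order of deposition, which carries no other meaning.

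Mature red cells of mammals have no nucleus, and the transcripts found in them were made earlier, in the erythroblast and the reticulocyte. HBB and HBA2 encode the beta and alpha chains of haemoglobin, AHSP the chaperone that binds free alpha chains, and ALAS2 the enzyme that opens haem synthesis in developing red cells. As a reticulocyte matures it clears its organelles and loses most of its RNA. Horses are known for keeping nearly all their reticulocytes in the bone marrow, so that few are seen in the circulation. In whole blood, more red cells that hold a transcript and more of that transcript per cell cannot be told apart, and the same holds for every cell type named here.

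The probes that carry the comparison are shown by the 30 bases at their 5′ end, out of 60 bases each, because the whole text rests on how these few oligonucleotides hybridised. The letters are those of the deposited array files, in lower case, and nothing in them is marked. The first 4 lines are the probes of the score, the fifth is a second site of HBB, and the last 2 are genes outside the score.
HBB: gggatgttatgaaaggctttgagatcctgg
AHSP: ttccctttcatagtgttactctaccttgac
ALAS2: ggcctccttctgtcctctgctttgttgtgt
SELENBP1: acacagtaaagggagggctgaagttgaacc
HBB, second site: tcttgacaacctcaagggcacctttgctgc
HBA2: gcctccctggacaagttcttgagcagtgtg
haemoglobin theta 1: agagaggatgttcctgggcttcccctccac
Over the whole 60 bases, no pair among these 7 probes shared a run of more than 7 bases on the same strand, and the HBA2 and HBB probes shared at most 5 in a row and 23 bases in all in any ungapped alignment. Probes were compared with each other and not with transcripts, so binding of a probe to the transcript of another globin was not tested. The 2 sites of HBB lie 897 bases apart in the coordinates of the array files.

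Levels are log2 signals relative to the 75th percentile of the array, so that 0 is that percentile and a difference of 1 is a doubling of the signal. HBB ranged from 7.28 to 9.89 in the rich arrays, with a median of 8.51, and from 4.05 to 6.43 in the poor arrays, with a median of 4.81. AHSP ranged from -0.86 to 1.42 in the rich and from -3.44 to -2.19 in the poor arrays. ALAS2 ranged from 1.85 to 5.18 in the rich and from 0.20 to 0.94 in the poor arrays. For these 3 genes the classes did not overlap, which the choice of the arrays largely fixes. SELENBP1, a selenium-binding protein that is abundant in red cells, ranged from -2.56 to -0.83 in the rich and from -2.82 to -1.49 in the poor arrays, so its classes overlapped over most of their range. Over the 32 arrays HBB, AHSP and ALAS2 rose and fell together, with Pearson correlations of 0.75 to 0.89 between them. SELENBP1 had correlations of -0.26 with HBB, -0.17 with ALAS2 and -0.01 with AHSP, and 0.20 with the score that contains it. Its highest level among the arrays between the classes, -0.51, lay above every rich array. The label of red cell transcripts therefore describes 3 of the 4 genes, by the same values that chose the arrays. SELENBP1 set the membership of some arrays without moving with the others. A score of the other measured red cell genes shared only 4 rich and 3 poor arrays with these classes, so the label does not extend to red cell genes in general.

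**Figure D1:**
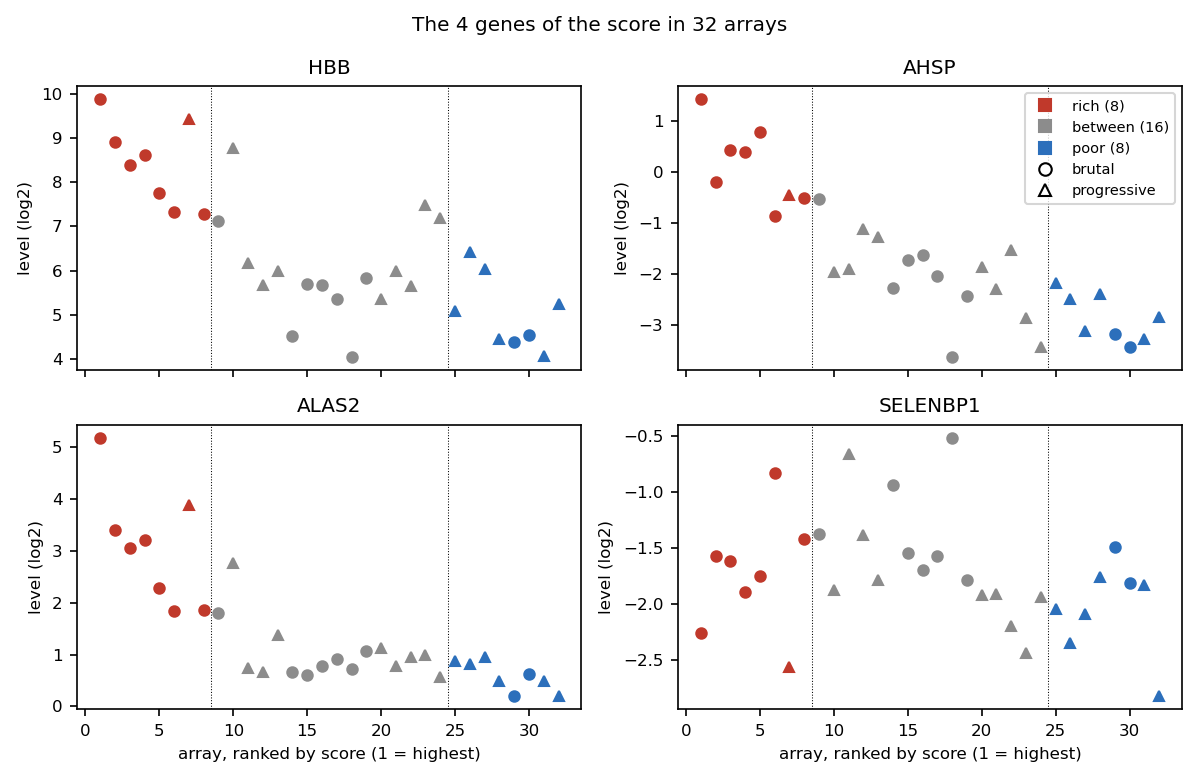
Levels of the 4 genes of the score (log2 signal relative to the array's 75th percentile) in the 32 arrays, ranked on the x axis by the score, with red for the 8 rich, grey for the 16 between and blue for the 8 poor arrays, circles for brutal and triangles for progressive weaning. HBB, AHSP and ALAS2 separate the 8 rich from the 8 poor arrays and SELENBP1 does not.

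The rich class held 7 arrays of brutal weaning (numbers 3, 7, 8, 9, 11, 12 and 14) and progressive 5. The poor class held 6 arrays of progressive weaning (numbers 2, 8, 9, 10, 12 and 15) and brutal 5 and 16. Class and weaning type are therefore largely confounded, and with a single rich array of progressive weaning no test of their interaction was made. The score ran from 0.61 to 1.66 in the rich and from -1.18 to -0.56 in the poor arrays. Just inside the limits stood brutal 7 at 0.61 and progressive 2 at -0.56, and just outside brutal 10 at 0.58 and progressive 16 at -0.48, so neither limit lies in a gap. Without SELENBP1 in the score, 7 of the 8 rich and 6 of the 8 poor arrays stayed in their class. Progressive 7 then replaced brutal 9 among the rich arrays, and brutal 13 and brutal 1 replaced progressive 2 and progressive 8 among the poor ones.

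The arrays of both classes lay on all 4 slides, with 1, 3, 3 and 1 rich and 1, 2, 3 and 2 poor arrays on slides 1 to 4. The 75th percentile of the signal averaged 456 ± 78 intensity units (SD, n = 8) in the rich and 538 ± 86 (SD, n = 8) in the poor arrays (exact permutation test over 12870 relabellings, two-sided, p = 0.0676, 0.177 after adjustment over 4 measures). Since every level is relative to that percentile, its part in small differences of a common sign was not tested. The share of spots well above background, the number of outlier spots and the median background gave exact permutation p-values of 0.391, 0.0884 and 0.364, each at least 0.177 after adjustment. One poor array stood apart. In progressive 2, the poor array nearest to the limit, 72 of 74 cytosolic ribosomal protein genes and 71 of 74 genes of the respiratory chain and ATP synthase lay above all 7 other poor arrays, against 31.8% of all genes. The mean level of these ribosomal genes was 7.15 there, 6.28 to 6.59 in the other poor arrays and 6.48 to 7.04 in the rich arrays. Its cell cycle genes also averaged -0.05, against -2.23 to -1.09 in the other poor arrays. List medians and differences of named genes that moved by over 1.5 times or changed sign without this array are given with and without it.

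Outside the score, HBA2 was higher in the rich arrays past the threshold, an adjusted p under 0.05 in limma over 9386 genes. In all 2 genes were higher past it, 0.0213% of the genes tested, and 0 genes were lower (0%). The arrays were chosen for red cell transcripts, so these p-values ask whether a gene moves with the score over these mares and say nothing of a treatment. HBA2, an alpha chain of haemoglobin, ranged from 6.94 to 9.86 in the rich arrays, with a median of 8.05, and from 3.96 to 6.20 in the poor arrays, with a median of 4.63. All 8 rich arrays lay above all 8 poor arrays, and brutal 12 was the highest, followed by progressive 5, the only rich array of progressive weaning. The difference of the means was 3.14 (SE 0.43, limma adjusted p = 0.0058), an 8.79-fold ratio. Over the 32 arrays HBA2 had a Pearson correlation of 0.96 with HBB, a gene of the score. Its difference is therefore not independent of the values that chose the arrays.

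Since all rich arrays lay above all poor ones for HBA2, its direction within a weaning type or a slide was fixed. The ranges and slide differences below only describe its size. In brutal weaning HBA2 ranged from 6.94 to 9.86 in the 7 rich arrays and stood at 4.35 and 4.60 in the 2 poor ones, and in progressive weaning it was 9.14 in the rich array and 3.96 to 6.20 in the 6 poor ones. Within brutal weaning alone, a comparison chosen after seeing the data, the difference was 3.50, with a limma adjusted p of 0.158 for 7 against 2 arrays. On slides 1 to 4 taken singly HBA2 differed by 1.49, 3.07, 3.55 and 3.22. Without slides 2, 3 or 4 limma did not call HBA2, although the difference stayed between 2.89 and 3.13, and the adjusted p-values were 0.143 to 0.269. With slide and weaning type as terms together HBA2 was not past the threshold (difference 3.61, adjusted p = 0.237). With neutrophil, T cell and platelet scores as covariates the HBA2 difference was 3.30 (SE 0.67, limma unadjusted p = 0.00022, adjusted p = 0.952). Limma called 0 genes in that fit, with 129 higher and 233 lower at an unadjusted p under 0.05.

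**Figure D2:**
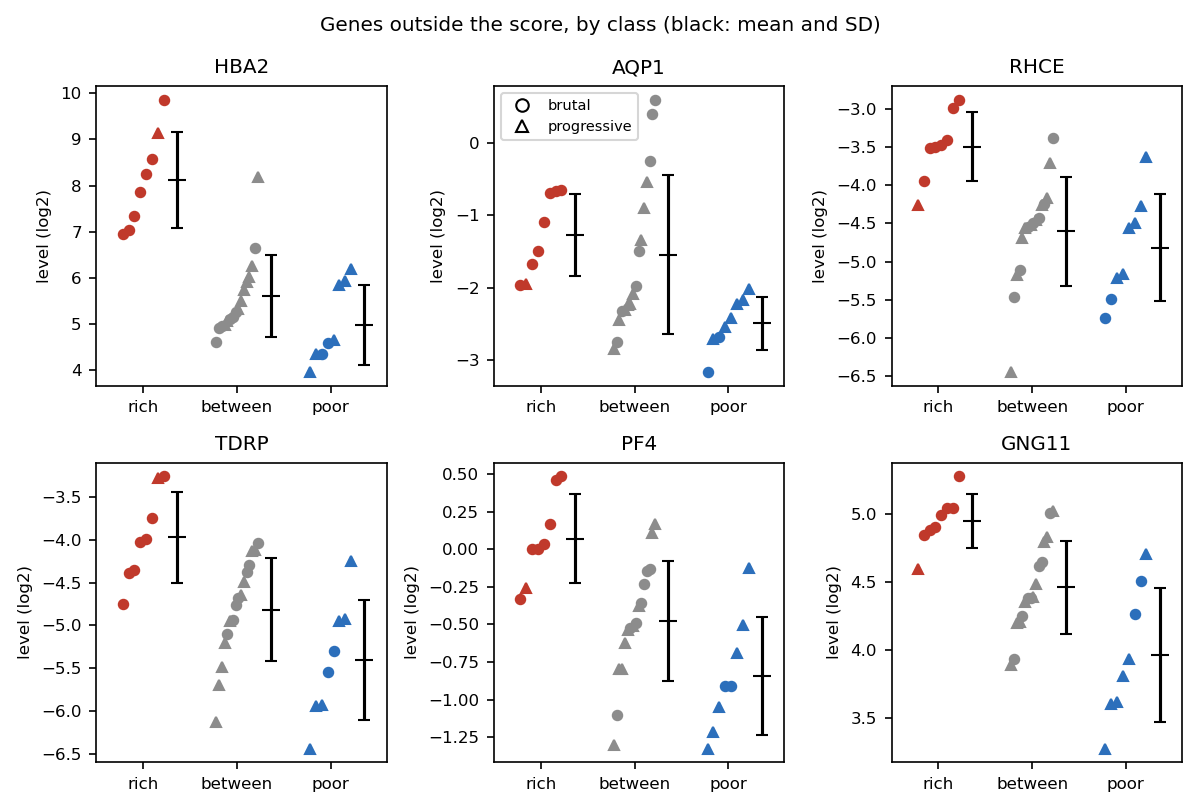
Levels (log2 signal relative to the array's 75th percentile) of 6 genes outside the score in the rich, between and poor arrays, one point per mare, circles for brutal and triangles for progressive weaning, with the mean and SD of each class in black. HBA2 and AQP1 do not overlap between rich and poor arrays, and for AQP1 the arrays between them reach above both.

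Other globin probes differed by similar amounts. At the level of single probes limma called 7 of 26354 probes (0.0266%), all higher in the rich arrays. Besides HBA2 they included the probe that the files describe as haemoglobin theta 1, a minor alpha-like chain, which ranged from 4.85 to 7.15 in the rich and from 1.86 to 3.56 in the poor arrays. They also included 1 probe known only as LOC100054161, with means of 6.15 and 2.29, and 1 probe without any gene, A_69_P113361, with means of 4.32 and 1.14. What these 2 probes measure is not known here. A pair of probes of AQP1 was called too, with differences of 2.19 and 1.82 (limma adjusted p = 0.0246 and 0.0316). The second site of HBB, a gene of the score, ranged from 6.08 to 9.17 in the rich and from 2.62 to 4.81 in the poor arrays. HBZ, the embryonic alpha-like chain, was well above background on 1 array, and of the 6 probes described as epsilon globin 3 were above it on none and the others on 1 or 2.

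Of the red cell genes too dim for the test, HEMGN and CA1 were above background mainly on rich arrays, and the others described here on few arrays of any class or on none. HEMGN, chosen after its values were seen and known as a nuclear protein of the erythroid lineage, stood well above background on 7 of 8 rich, 1 of 16 between and 1 of 8 poor arrays. Its level ranged from -5.31 to -2.65 in the rich and from -7.82 to -4.79 in the poor arrays. CA1, the abundant carbonic anhydrase of red cells, stood above background on 5 of 8 rich, 1 of 16 between and 1 of 8 poor arrays, with ranges of -6.31 to -3.49 and -7.68 to -6.25. The filter on dim probes left both genes out of the test, so these values are a description, and most poor values only bound the level from above. TFRC, the transferrin receptor, and EPB42, a protein of the membrane skeleton, were well above background on 0 of 32 arrays, and KEL on 1, which was no rich array. SLC4A1, the anion exchanger of red cells, was above it on 3 arrays (0 rich, 2 poor), CA2 on 3 (0 rich, 1 poor) and TRIM58 on 4 (1 rich, 1 poor). KLF1, GATA1, EPOR and a gene named HBA were not found among the named probes and are not analysed here.

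Among the genes of the red cell membrane and skeleton, 13 of 16 measured genes were higher and 3 lower in the rich arrays, with a median difference of 0.31. Here and for the lists below, the range of the median over 9 other settings on the same 16 arrays (scalings, filters, slide or weaning type as terms) stands beside it, and for this list it was 0.089 to 0.38, lowest with the deposited series table. Over all 9386 genes 59.9% were higher and the median was 0.051. No member passed the threshold, and 7 were higher at an unadjusted p under 0.05, a level that 7.11% of all genes reached in that direction and 3.65% in the other. AQP1, the water channel of red cells, ranged from -1.96 to -0.65 in the rich and from -3.17 to -2.02 in the poor arrays. It was 1 of 3 genes without overlap in the higher direction, which 0.032% of all genes showed, and 0 genes showed it in the lower one. Its difference was 1.22 (SE 0.22, limma adjusted p = 0.0692). With slide as a block it was past the threshold (adjusted p = 0.0285), as it was under normexp background correction (0.0391), with the deposited series table (0.0365) and with the stricter filter on dim probes (0.0443). It was not with weaning type as a term (0.263), nor with slide added (0.342). With SELENBP1 left out of the score AQP1 differed by 0.80 (limma adjusted p = 0.276), and with ALAS2 left out by 1.28 (0.0328). Its level did not follow the score between the classes, where it ranged up to 0.60 in brutal 4. RHCE, which carries blood group antigens on the red cell, differed by 1.32 (SE 0.27, adjusted p = 0.153), with 6 of 8 rich arrays above all poor ones, and by 0.57 with normexp. RHCE was past the threshold for the 6 highest against the 6 lowest arrays (limma adjusted p = 0.0140), for 10 against 10 (0.0129) and with SELENBP1 left out of the score (0.00053). It was not with slide as a block (0.0894) or with weaning type as a term (0.257).

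Haem synthesis genes other than ALAS2 differed by -0.18 to 0.28. Of 18 measured genes of haem synthesis and export 13 were higher and 5 lower, with a median of 0.15 (range 0.095 to 0.18) and 0 past the threshold. The 3 with the smallest p were GLRX5, a glutaredoxin of iron-sulphur cluster assembly (0.27, SE 0.11), BLVRB, biliverdin reductase B (0.28, SE 0.13), and TMEM14C, a mitochondrial porphyrin carrier (0.26, SE 0.12), with limma adjusted p-values of at least 0.447. FECH, which inserts the iron into haem at the other end of the pathway from ALAS2, averaged -3.77 in the rich and -3.90 in the poor arrays, a difference of 0.12 (SE 0.14, adjusted p = 0.695). The red cell enzymes were higher for 16 of 17 genes, with a median of 0.15 (range 0.050 to 0.15), lowest under quantile normalisation. GPI, HAGH and GPX1 had the smallest p among them, with differences of 0.27, 0.36 and 0.26 and adjusted p-values of at least 0.447. BPGM, which makes 2,3-bisphosphoglycerate in red cells, differed by 0.17 (SE 0.15, adjusted p = 0.628).

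Transcription factors of the erythroid lineage showed no common direction. Of 11 measured, 7 were higher and 4 lower, 0 passed an unadjusted p of 0.05, and the median of 0.091 (range -0.095 to 0.18) turned to -0.060 with weaning type as a term and was 0.022 without progressive 2, with 6 of 11 higher. E2F2, SOX6 and LDB1, the 3 with the smallest p, differed by 0.38, 0.30 and 0.21. Among genes of reticulocyte clearance and maturation, 20 of 27 were higher with a median of 0.15 (range 0.091 to 0.18). At an unadjusted p under 0.05 were 7 members, all higher, a level that 7.11% of all genes reached in that direction. BNIP3L, the receptor through which reticulocytes remove mitochondria, averaged 2.21 ± 0.56 (SD, n = 8) in the rich and 1.58 ± 0.35 (SD, n = 8) in the poor arrays (difference 0.63, SE 0.22, limma adjusted p = 0.447). ATG4A, an autophagy protease, differed by 0.56 (SE 0.19, adjusted p = 0.447). Of the genes of erythropoietin signalling and iron handling 9 of 16 were higher, with a median of 0.069 (range 0.011 to 0.086) that was -0.029 without progressive 2. Those with the smallest p were the iron stores FTL (0.33) and FTH1 (0.28) and NCOA4, which delivers ferritin to autophagy (0.52), with limma adjusted p-values of at least 0.447.

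Platelet transcripts were higher in the rich arrays as a list, with no single gene past the threshold. All 13 measured platelet genes were higher in the rich arrays, with a median of 0.45, 5 at an unadjusted p under 0.05 and 0 past the threshold. Over all genes 59.9% were higher, and 7.11% were higher at an unadjusted p under 0.05. With weaning type as a term 11 of the 13 platelet genes were higher. The median lay between 0.37 and 0.56 under the other settings tried on the same 16 arrays. PF4, a chemokine of platelet granules, ranged from -0.33 to 0.49 in the rich arrays, with a median of 0.02, and from -1.33 to -0.13 in the poor arrays, with a median of -0.91. GNG11, a G protein subunit abundant in platelets, ranged from 4.59 to 5.28 in the rich and from 3.27 to 4.71 in the poor arrays. For PF4 6 and for GNG11 7 of the 8 rich arrays lay above every poor array, and the highest poor array was progressive 2 for both. The differences were 0.91 (SE 0.17) for PF4 and 0.98 (SE 0.18) for GNG11, both at a limma adjusted p of 0.0692. Without progressive 2 they were 1.01 and 1.09, both at an adjusted p of 0.0082, and both were also past the threshold with the series table (0.0365 each). With weaning type as a term the adjusted p-values were 0.367 and 0.453. On slides 1 to 4 singly PF4 differed by 0.59, 0.96, 0.85 and 1.12 and GNG11 by 0.19, 0.90, 1.19 and 1.39, where slide 1 compares 1 rich array with progressive 2. ITGA2B, an integrin subunit of platelets, differed by 0.91 (SE 0.26, adjusted p = 0.447). The mean level of the platelet list ran from -0.50 to 0.28 in the rich and from -1.48 to -0.38 in the poor arrays. Its part in the red cell differences was not tested beyond the covariate fit above.

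The lists of other blood cells are given for the whole list, as a measure of what else differed between the classes. Of 17 genes of natural killer and cytotoxic cells 15 were higher, with a median of 0.37 (range 0.27 to 0.66, highest with weaning type as a term) and 7 at an unadjusted p under 0.05. Over all genes 59.9% were higher, and 7.11% were higher at an unadjusted p under 0.05. GZMB, a granzyme, ranged from 6.61 to 7.95 in the rich and from 6.13 to 7.01 in the poor arrays (difference 0.72, SE 0.18, limma adjusted p = 0.447). CST7 and FASLG, also of cytotoxic cells, differed by 0.44 and 0.32. B cell genes went the other way, with 10 of 11 lower and a median of -0.18 (range -0.33 to -0.18). EBF1 and PAX5, transcription factors of B cells, differed by -0.57 (SE 0.18) and -0.64 (SE 0.24), and BLK, a kinase of B cells, by -0.33 (SE 0.17), with limma adjusted p-values of at least 0.447. All 3 overlapped between the classes. Without SELENBP1 in the score EBF1, PAX5 and BLK differed by -0.74, -0.76 and -0.41. For a score of HBB, AHSP and ALAS2 in brutal mares alone, 6 against 6 arrays, they differed by -0.098, 0.021 and 0.0076. That fit was added after the data were seen.

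Neutrophil genes were higher for 20 of 21, with a median of 0.17 (range -0.13 to 0.17) that turned to -0.13 with weaning type as a term, where 9 were higher. Over all genes 59.9% were higher, and 5743 of 9386 with weaning type as a term. The 3 with the smallest p were S100A8 (0.76, SE 0.33), CEACAM1 (0.19) and PROK2 (0.29). T cell genes were higher for 14 of 19 (median 0.11, range 0.028 to 0.37), and for 18 of 19 with weaning type as a term (0.34), with CD3E, LCK and CD3G at 0.24, 0.27 and 0.25. Monocyte genes were higher for 11 of 14 (median 0.090, range 0.032 to 0.10), with CX3CR1 at 0.50, CLEC12A at 0.22 and FCN1 at -0.45. Dendritic cell genes were higher for 4 of 9, with TCF4 at -0.41, CCR7 at -0.28 and BATF3 at 0.12, and eosinophil and basophil genes for 2 of 5, with IL5RA at -0.62, CCR3 at -0.47 and FCER1A at 0.23. The medians of these last lists were -0.017 (range -0.075 to 0.021) and -0.098 (range -0.17 to 0.15), and without progressive 2 they were -0.045 and -0.29, with FCER1A at 0.11. Of 3 endothelial genes ROBO4 and VWF were higher (0.49 and 0.64) and PECAM1 was at -0.04, and at -0.00050 without progressive 2. VWF is a member of the platelet list as well. Interferon-stimulated genes were higher for 18 of 22 (median 0.12, range 0.066 to 0.32), with IFI27, ISG15 and IFI6 at 0.69, 0.79 and 0.61. Without progressive 2 the interferon list was higher for 15 of 22 (median 0.070), and under quantile normalisation for 14. Over all genes 5697 and 5476 of 9386 were higher in these settings, so the interferon counts there lay near the share of all genes. None of the genes in these lists passed the threshold.

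**Figure D3:**
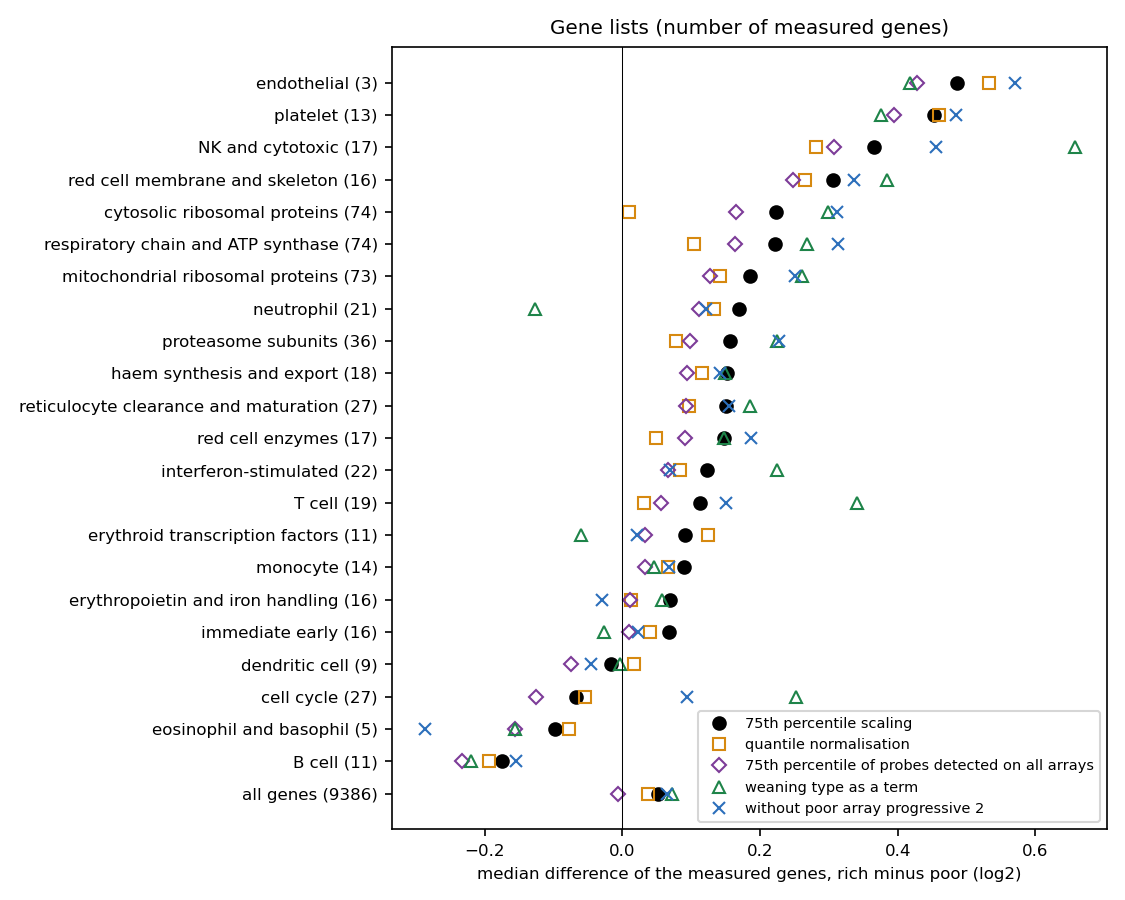
Median difference of the measured genes of each list, rich minus poor (log2), with the number of genes in brackets, under the 75th percentile scaling (black), 2 other scalings, weaning type as a term, and without the poor array progressive 2. The platelet, cytotoxic and red cell membrane medians lie above 0 in each setting drawn, as do those of most other lists. The B cell median and the eosinophil and basophil median lie below 0 in each. The medians of the cell cycle, dendritic cell, erythroid factor, neutrophil, immediate early and iron handling lists and of all genes lie on both sides.

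Genes of ribosomes, mitochondria and proteasomes were higher in the rich arrays by small amounts, where 59.9% of all genes were higher. The counts were 73 of 74 cytosolic ribosomal proteins (median 0.22), 67 of 73 mitochondrial ribosomal proteins (0.19), 72 of 74 genes of the respiratory chain and ATP synthase (0.22) and 35 of 36 proteasome subunits (0.16). Their medians ranged from 0.0092 to 0.30, 0.12 to 0.26, 0.099 to 0.27 and 0.077 to 0.23 over the other settings. Under quantile normalisation 45 of the 74 cytosolic ribosomal genes were higher, against 5476 of 9386 over all genes. The respiratory chain and proteasome medians were then 0.10 and 0.078. MRPL34, a mitochondrial ribosomal protein, had the largest difference of those named, 0.64 (SE 0.15, limma adjusted p = 0.447). MRPL17 and MRPS23 differed by 0.28 and 0.26, ATP5MK, NDUFA3 and NDUFB9 of the respiratory chain list by 0.51, 0.37 and 0.27, RPLP2, RPS21 and RPL28 by 0.30, 0.28 and 0.29, and PSMB5, PSMC5 and PSMB9 by 0.23, 0.23 and 0.29. Of 27 cell cycle genes 20 were lower, with a median of -0.067, but without progressive 2 19 were higher and the median was 0.094, and with weaning type as a term 26 were higher and it was 0.25. BUB1, CCNB2 and CENPE, which act in mitosis, differed by -0.25, -0.26 and -0.28, and by -0.04, -0.10 and -0.14 without progressive 2. Of 16 immediate early genes 14 were higher (median 0.067, range -0.057 to 0.087), but 9 without progressive 2 (median 0.023) and 8 with weaning type as a term or with the percentile over the probes detected on all arrays, with FOSB at 0.44, JUNB at 0.36 and NR4A1 at 0.38.

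No gene was lower in the rich arrays past the threshold, and the 6 with the smallest p had limma adjusted p-values of 0.447. They were CLMN, a membrane-anchored actin-binding protein (-0.63, SE 0.16), ATP8A1, a phospholipid flippase (-0.51, SE 0.13), DMTF1, a cell cycle regulator of the ARF pathway (-0.46, SE 0.12), PROX1, a homeobox factor (-0.69, SE 0.18), FST, follistatin (-0.87, SE 0.24), and ESPL1, the protease that frees sister chromatids (-0.87, SE 0.25). All 6 overlapped between the classes, and with normexp background correction their differences were -0.22, -0.16, -0.05, 0.01, -0.40 and -0.08. On the higher side PHLDA2, named here through an expressed sequence tag, filled the list of smallest p. It differed by 1.45 (SE 0.27, adjusted p = 0.0692) and stood above background on 14 of 32 arrays, and the difference was 0.43 with normexp. The filter counts arrays by weaning type and most rich arrays are brutal. PHLDA2 could thus enter the test mainly through arrays where it is high, and its p is no independent support. Over all genes 667 were higher and 343 lower at an unadjusted p under 0.05. Other scalings shifted these counts: 411 were higher and 542 lower where the percentile was taken over the probes detected on every array, and 1011 and 189 with normexp.

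Among the 6 genes whose levels followed the score most closely over the 32 arrays were HBA2 (Pearson r = 0.88), TDRP (0.76), PF4 (0.74), GNG11 (0.72) and TFF2 (0.70). These correlations include the arrays of both classes and are a description. TDRP, a testis development protein, differed by 1.44 (SE 0.29, limma adjusted p = 0.129) and stood above background on 22 arrays. TFF2, a trefoil peptide, differed by 1.28 (SE 0.35, adjusted p = 0.447) and stood above background on 16 arrays. With normexp these differences were 0.50 and 0.47. As dim genes, TDRP and TFF2 could also pass the filter mainly through the brutal arrays that make up most of the rich class. Their p-values and correlations are therefore no independent support. With all 32 arrays and the score as a number, limma called 28 genes with a positive slope (0.298%) and 4 with a negative one (0.0426%). The 28 included HBA2, PF4, GNG11, RHCE, ATG4A, NCOA4 and XPO7, and the 4 were FUBP3, RBM41, PRR14L and KDM8. These arrays include the 16 extremes.

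The 16 arrays between the classes share no mare with the comparison and were used to ask whether the same genes followed the score there. That score includes SELENBP1, whose z value ran from -1.35 in progressive 11 to 2.38 in brutal 1 among these arrays. Without SELENBP1 the score of progressive 7 was 0.79 rather than 0.52. That of brutal 13 was then -0.74 rather than -0.17, and that of brutal 1 was -1.17 rather than -0.28. A slope on the score here is therefore not a slope on HBB, AHSP and ALAS2 alone. Slopes on a score without SELENBP1 were not fitted in these arrays. Limma called 0 of 9386 genes (0%), and the smallest adjusted p was 0.995. At an unadjusted p under 0.05 it gave 203 positive (2.16%) and 75 negative slopes (0.799%). HBA2, which closely followed HBB of the score (r = 0.96 over the 32 arrays), had a slope of 1.73 per unit of score (SE 0.48, unadjusted p = 0.0023). Progressive 7, between the classes with a score of 0.52, had HBA2 at 8.19, higher than 4 of the 8 rich arrays. TDRP had a slope of 1.28 (SE 0.31, unadjusted p = 0.00078), PF4 of 0.61 (SE 0.26) and RHCE of 0.84 (SE 0.47), while AQP1 had -0.09 (SE 0.79). Of the 667 genes higher in the rich arrays at an unadjusted p under 0.05, 84.3% had a positive slope in these 16 arrays, and of the 343 lower genes 84.0% had a negative one, against 56.6% positive and 43.4% negative over all genes. Genes are not independent of each other, and no p is given for these shares. Of the platelet genes 10 of 13 had a positive slope, of the B cell genes 1 of 11, and of the cytotoxic genes 8 of 17. Cell cycle genes had a positive slope for 26 of 27.

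**Figure D4:**
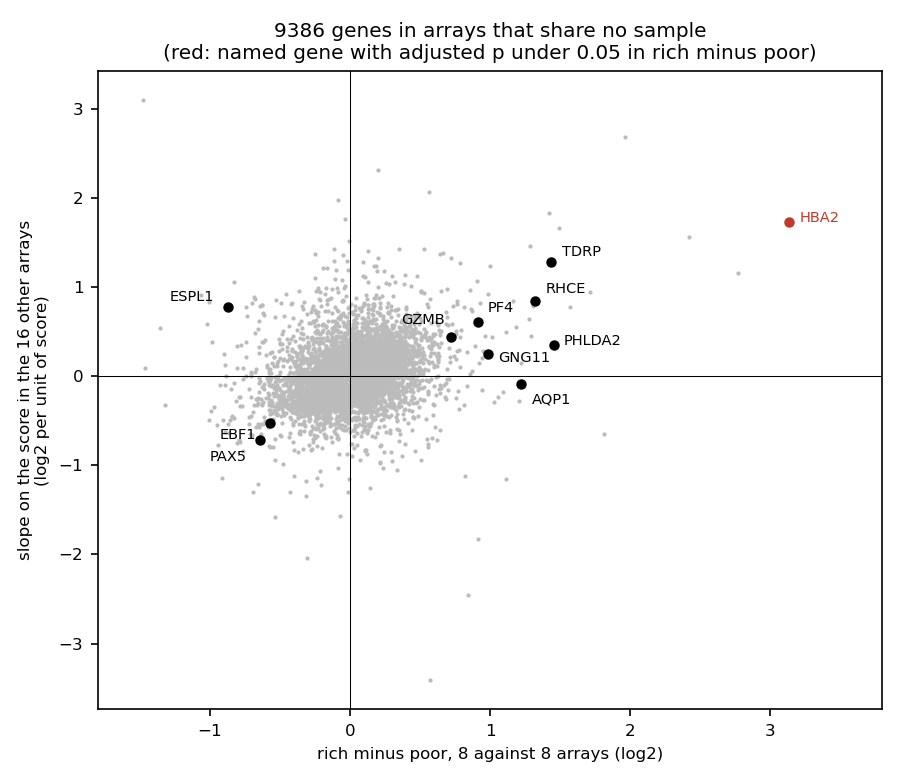
Each of 9386 genes by its difference between the 8 rich and 8 poor arrays (x axis, log2) and its slope on the score in the 16 other arrays (y axis, log2 per unit of score), with 11 genes named and, of these, the one past the threshold in red. HBA2 lies far to the right and above 0, while AQP1 lies to the right with a slope of -0.09.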

How the data were processed

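The intensity values of the deposited arrays came from Agilent Feature Extraction 10.10.1.1, per the submitters' processing notes, and the deposited series table gives log2 values whose medians per array ran from 8.397 to 8.399, by a normalisation not given in the sources used here. Of 62976 spots 1319 controls and 2483 outlier spots over all arrays were left out, and 0 spots were saturated. Levels are log2 of the processed signal over the array's 75th percentile, averaged per probe. The filter kept probes that 8 or more of the 16 arrays of either weaning type showed well above background, 26368 of 43987 probes. Since 7 of 8 rich arrays are brutal, a dim gene could pass mainly through them. The brightest of its tested probes stood for a gene, which left 9386 genes besides the score genes, out of 15068 on the array. Names came from the files or from a reference table, and 14488 probes had none.

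Differences are rich minus poor from lmFit and eBayes of limma 3.58.1 (R 4.3.3), two-sided, with Benjamini-Hochberg adjustment over all genes, and technical measures were compared by exact permutation with numpy 2.4.6. The limma step was tested on simulated data. Named genes were up to 12 per direction past the threshold, filled to 6 by the smallest p, the 3 with the smallest p of each list, the 4 score genes, a fixed set of red cell genes, and the 6 with the highest correlation with the score. HEMGN, EPB42, CA2, KEL, HBZ and the probes without a gene were named after their values were seen, as were the genes given as called in the fit over all 32 arrays. Some genes that the rule took, 1 of them past the threshold, are not reported here. The arrays, the lists and the rule were chosen with earlier results of these data known. The number of arrays limits the precision. Positions are not printed, because the build of the files' coordinates could not be settled.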

Additional observations from a re-analysis of the deposited data

Results flagged for a closer look

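Dixon's criterion was applied to each class of 8 arrays. It covered the genes taken by the rule, the dim red cell genes, the score and the 4 technical measures. In 14 of 192 tests it found the highest or lowest array apart from the other 7, where chance gives about 1 in 20. In 9 of the 14 the array was progressive 2 among the poor arrays, with the highest level each time. It stood at 5.18 for ATP5MK, 1.65 for GLRX5, 6.25 for GPX1, 5.08 for HAGH, 3.42 for NR4A1, 9.23 for RPL28 and 8.74 for RPLP2, and at -4.90 for TRIM58. For CA2 the same array stood at -1.52, where the next poor array was at -6.29. Among the other poor arrays brutal 5 was lowest for FASLG at -4.12, progressive 9 was lowest for PROK2 at -4.94, and progressive 15 was highest for HBZ at -3.27. Among the rich arrays brutal 8 was lowest for ATP8A1 at -3.72 and brutal 3 was lowest for ESPL1 at -5.88.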

How the results depend on the processing

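The comparison of rich and poor arrays gave 2 genes past the threshold, and the count lay between 2 and 11 when each of the 16 arrays was left out in turn, with 11 (10 higher, 1 lower) without progressive 2. HBA2 was called in all 16 of these fits. Limma called 5 genes with normexp, 6 with the series table, 4 with slide as a block, 1 with slide and weaning type as terms, 4 with the stricter filter, 4 for the 6 highest against the 6 lowest arrays, 5 for 10 against 10, and 32 with the score as a number over 32 arrays. It called 5 genes with trend and robust options, 7 with array weights, 6 at an adjusted p under 0.10, and 0 with the composition covariates. With the score lacking HBB, AHSP or SELENBP1 the counts were 7, 5 and 10. Of the 10, 7 were higher and 3 lower, and PROX1 was among the lower ones (-1.01, limma adjusted p = 0.0086). A score of the other measured red cell genes gave 3308, but it shared only 4 rich and 3 poor arrays with the classes used here. Without slide 1 the count was 26 (20 higher, 6 lower). Without slides 2, 3 or 4 it was 0, with 252, 501 and 502 genes at an unadjusted p under 0.05. The cause of these differences was not tested. Within brutal weaning, and for a score of HBB, AHSP and ALAS2 in brutal mares alone, both added after the data were seen, the counts were 3 each. The 3 genes within brutal weaning were RHCE and SULT2B1, both higher, and GGNBP1, which was lower (-6.09), with HBA2 not among them. The other fit called HBA2 and RHCE among its 3. The slope in the 16 other arrays gave 0 genes under each of its 6 alternatives.

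The technical differences kept their sign without each array: -104 to -65.1 for the 75th percentile, -51.4 to -26.5 for outlier spots, -2.44 to -0.74 percentage points for the share above background and -1.39 to -0.61 for the median background. Named genes changed sign with weaning type as a term for BUB1 (0.020), CCNB2 (0.086) and CENPE (0.13, and 0.13 with slide added), and with normexp for PROX1 (0.014). Medians of the erythroid factor, neutrophil, cell cycle and immediate early lists changed sign with weaning type as a term, to -0.060, -0.13, 0.25 and -0.027. The interaction of class and weaning type was not run, because progressive weaning held 1 rich array. No paired analysis was possible because the replicate numbers come from the order of deposition and tie no mares of different groups together. Probes near the background limit what can be said of CA1, HEMGN, TDRP, TFF2 and PHLDA2.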
